A study of Mus musculus with 6 samples.

Results

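The genes described here are 9 writers, erasers and readers of DNA methylation, chosen by name from the 43346 genes of the count table: Dnmt1, Dnmt3a, Dnmt3b, Uhrf1, Tet1, Tet2, Tet3, Mbd2 and Mbd3. None of them passed the test for a response to 10HDA, a fatty acid of royal jelly, in cultured fetal mouse cortex. Of the 8 that were abundant enough to be tested, 1 was higher and 7 were lower with 10HDA, and the largest difference was 0.158 on the log2 scale. Of all 10520 tested genes, 5034 were higher and 5486 lower. The 7 include Tet1 (-0.00501) and Tet3 (-0.012), which turned positive in 16 and 15 of 20 alternative analyses. Dnmt1 was the only tested member that moved the same way, lower, in 3 of 3 cultures. For each member, the libraries of at least 1 treatment spanned a larger range than the difference between treatments. This sets a range over 3 libraries against a difference of means. For Tet1 the vehicle libraries spanned a 1.7-fold range, while both means were 47.8 CPM.

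The RNA came from cortical cells of fetal mice, taken on gestational day 15.5 and grown as primary cultures with either vehicle (DMSO, spelled DSMO in the labels) or 1 mM 10HDA. Each of cultures 1, 3 and 4 gave 1 vehicle library and 1 10HDA library, so that there were 6 libraries, 3 per treatment. The labels give the strain Cyp19-EGFP and the genotype SRY+ for both treatments, whereas the methods give C57BL/6 as the source of the embryos. Neither says whether the cultures came from separate embryos or litters, so the p-values measure only the spread between these 3 cultures, which may in part be technical. The libraries held between 9144736 and 13367194 counts on genes. CPM are counts scaled to a common library size, by the TMM method except where stated. For the Y-linked sums given next, library totals alone were used, without TMM factors. Transcripts of 4 Y-linked genes together reached 8.83 CPM with vehicle and 9.41 CPM with 10HDA in culture 1. The other 4 libraries had 90.0 to 131 CPM, although all 6 are labelled SRY+.

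DNA methylation in mammals is carried mostly by cytosines that are followed by guanine, a pair called CpG. DNMT3A and DNMT3B place new methyl groups, and DNMT1, brought to replicated DNA by UHRF1, copies them to the daughter strand. The TET enzymes oxidise methylated cytosine as the first step of its removal, and MBD2 reads methylated DNA while its close relative MBD3 holds the same place in the NuRD chromatin complex and binds methylated DNA poorly. Neurons stop dividing but keep DNMT3A and the TET enzymes in use, and hydroxymethylated cytosine is abundant in brain.

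All 9 members were detected in every library. The test was edgeR's quasi-likelihood test across 10520 genes, those that reached 10 CPM in 3 or more libraries, with p-values adjusted by the Benjamini-Hochberg method and called under 0.1. Dnmt3b did not reach that level and was tested in a second fit of the 15311 genes that reached 1 CPM. Of all tested genes, 0.627% passed the threshold in the first fit and 0.509% in the second, against 0 of 8 and 0 of 1 members. At an unadjusted p under 0.05 the share was 10.1% of all genes and the count again 0 of 8. With culture as a block, a fit that compares the libraries within each culture, 8.98% of all genes passed and 0 members did. For 13.4% of tested genes the 3 libraries of one treatment all lay above the 3 of the other, and for 0 members. An exact permutation test of 3 against 3 libraries has 0.1 as its smallest p and was not used. The counts of members were also 0 with DESeq2 and with limma-voom, which called 170 and 66 of all 10520 tested genes.

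**Figure D1:**
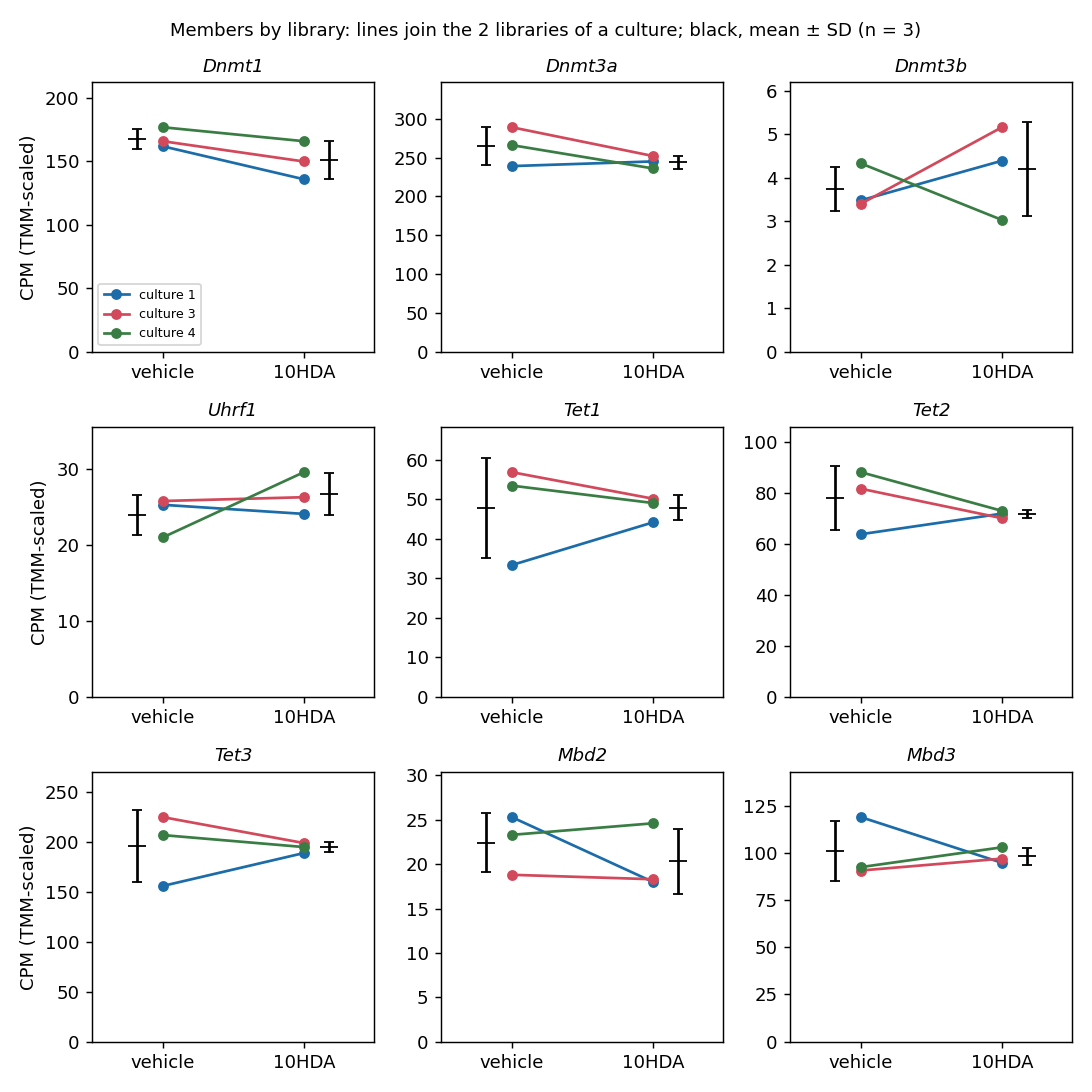
CPM after TMM scaling (vertical axes, each from 0) of the 9 members in each library, with a line joining the vehicle and the 10HDA library of a culture and black bars for mean ± SD of 3 libraries. The ranges of the treatments overlap in every panel, and the Tet1, Tet2 and Tet3 panels show the vehicle library of culture 1 below the other 5.

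Dnmt1, the maintenance methyltransferase, lies on chromosome 9 (GRCm38, 20907209 to 20959888, minus strand). It stood at 162, 166 and 177 CPM in the vehicle libraries of cultures 1, 3 and 4 and at 136, 150 and 166 CPM in the 10HDA libraries. Each culture was lower with 10HDA, by log2 ratios of -0.252, -0.137 and -0.0916, but the 10HDA library of culture 4 reached the level of the vehicle library of culture 3. The same direction in 3 of 3 cultures was seen for 39.5% of all tested genes. The log2 fold change was -0.158 (SE 0.102, edgeR adjusted p = 0.614), with a 95% interval from 0.768-fold to 1.05-fold, and the blocked fit gave -0.16 (adjusted p = 0.344).

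Uhrf1, the partner that leads DNMT1 to newly replicated CpG sites, lies on chromosome 17 (56303321 to 56323486, plus strand). It was counted at 25.3, 25.8 and 21 CPM with vehicle and at 24.1, 26.3 and 29.6 CPM with 10HDA. Culture 4 gave the one large log2 ratio, 0.487, against -0.0657 and 0.0308 in cultures 1 and 3. Its log2 fold change of 0.15 (SE 0.136, adjusted p = 0.708, edgeR) has an interval from 0.902-fold to 1.36-fold. Without culture 4 the estimate was -0.00958.

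Dnmt3a, the main new-methylation enzyme of neurons, lies on chromosome 12 (3806007 to 3914443, plus strand) and had more counts than any other member. Its values were 239, 289 and 266 CPM with vehicle and 245, 252 and 236 CPM with 10HDA. Culture 1 was almost level, with a log2 ratio of 0.0369, while cultures 3 and 4 were lower by -0.196 and -0.174. The log2 fold change was -0.115 (SE 0.0997, adjusted p = 0.697, edgeR), with an interval from 0.793-fold to 1.08-fold. The antisense gene Dnmt3aos shares 133 exonic bases with Dnmt3a, 0.8% of its exon length, and the strand setting of the counting is not given in the sources used here.

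Dnmt3b, on chromosome 2 (153649450 to 153687730, plus strand), had the fewest counts of the members. Its raw counts were 38, 44 and 51 with vehicle and 50, 70 and 27 with 10HDA, which is 3.48, 3.40 and 4.33 CPM against 4.39, 5.16 and 3.03 CPM. The 10HDA libraries held both the highest and the lowest value of the 6. In the wider fit the log2 fold change was 0.202 (SE 0.238, adjusted p = 0.783, edgeR), and its interval from 0.802-fold to 1.65-fold was the widest of the members.

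Tet1, an oxidising enzyme best known from embryonic stem cells, lies on chromosome 10 (62804570 to 62908996, minus strand). It was counted at 33.3, 56.8 and 53.4 CPM with vehicle and at 44.1, 50.1 and 49.0 CPM with 10HDA. The vehicle libraries spanned a 1.70-fold range and the 10HDA libraries, which lay inside it, a 1.14-fold range. Both means were 47.8 CPM, with SDs of 12.7 and 3.19, and the log2 fold change was -0.00501 (SE 0.173, adjusted p = 0.994, edgeR; 0.766-fold to 1.30-fold). The cultures did not share a direction, with log2 ratios of 0.4, -0.178 and -0.124.

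Tet3, the TET gene with the highest level in these cultures, lies on chromosome 6 (83362373 to 83459084, minus strand) and followed Tet1 across libraries. It stood at 156, 225 and 207 CPM with vehicle and at 189, 199 and 195 CPM with 10HDA. Again the lowest and the highest library were both vehicle libraries. The log2 fold change was -0.012 (SE 0.128, adjusted p = 0.982, edgeR; 0.816-fold to 1.21-fold), and the log2 ratios of cultures 1, 3 and 4 were 0.277, -0.173 and -0.0889.

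Tet2, which lacks the CXXC DNA-binding domain of its relatives, lies on chromosome 3 (133463679 to 133545139, minus strand). The vehicle libraries held 63.9, 81.8 and 88.3 CPM and the 10HDA libraries 72.0, 70.2 and 73.1 CPM. As for the other TET genes, culture 1 was higher with 10HDA and cultures 3 and 4 were lower, by log2 ratios of 0.171, -0.219 and -0.27. The log2 fold change was -0.121 (SE 0.123, adjusted p = 0.744, edgeR; 0.762-fold to 1.11-fold). Without the vehicle library of culture 1 it was -0.222 (adjusted p = 0.311, edgeR).

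**Figure D2:**
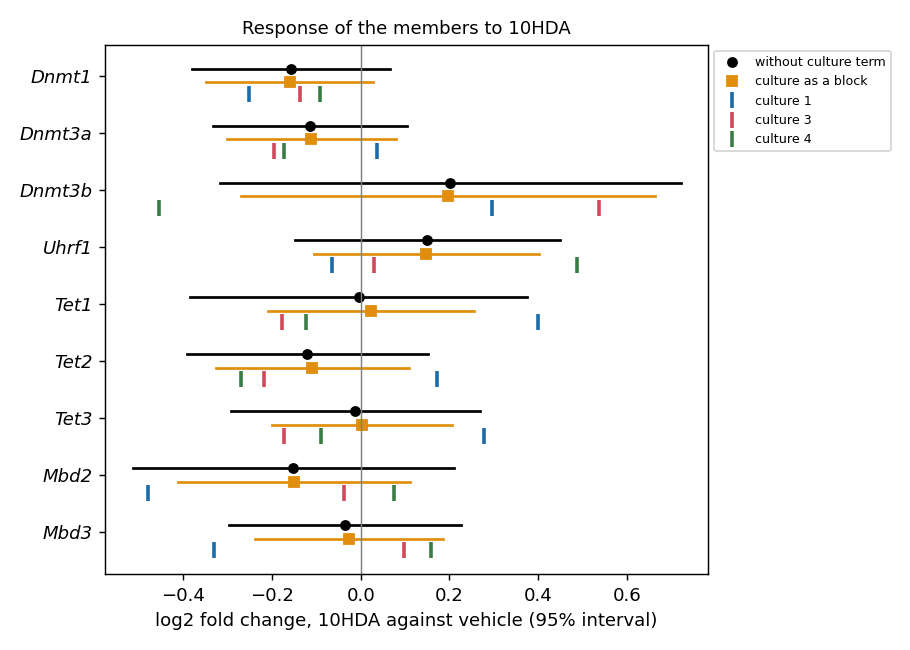
Log2 fold change of each member, 10HDA against vehicle (horizontal axis), with 95% intervals from the fit without a culture term (circles) and with culture as a block (squares), and the log2 ratio of each culture as a tick. Every interval includes 0, and for the 3 TET genes culture 1 lies to the right of 0 while cultures 3 and 4 lie to the left.

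The vehicle library of culture 1 set much of this spread. Relative to the mean of the other 2 vehicle libraries it was lower by -0.716 for Tet1, -0.407 for Tet2 and -0.466 for Tet3 and higher by 0.38 for Mbd3, all on the log2 scale. The 10HDA library of the same culture differed from its own group by only -0.166, 0.0079, -0.0578 and -0.0782 for these 4 genes. Without culture 1 altogether, whose Y-linked counts go against its label, 0 members passed, in a fit that called only 2 of 10234 tested genes. The log2 fold changes were then -0.133 for Tet1, -0.227 for Tet2, -0.113 for Tet3 and -0.095 for Dnmt1. In a test of the culture terms of the blocked fit, added after the values were seen, Tet1 differed between cultures (edgeR adjusted p = 0.0717) and no other tested member did, against 9.93% of all tested genes.

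Gene length moved with this pattern. Relative to the mean of the 6 libraries, the median gene shorter than 2000 bases was higher by 0.126 in the vehicle library of culture 1 and the median gene longer than 8000 bases differed by -0.154, with the listed genes left out. The other vehicle libraries went the opposite way, at -0.086 and 0.116 in culture 3 and at -0.0754 and 0.119 in culture 4, and the 10HDA libraries lay between. The 3 TET genes are long (9179 to 14710 exonic bases) and Mbd3 is short (1987 bases). Dnmt3a is the longest member at 16642 bases. With a smooth trend on length taken out of each library, the deviation of the vehicle library of culture 1 went from -0.494 to -0.3 for Tet1, from -0.313 to -0.149 for Tet3, from -0.219 to -0.0938 for Tet2 and from 0.266 to 0.161 for Mbd3. The same step left Mbd2 at 0.206 (from 0.252), moved Dnmt1 from 0.026 to 0.0874 and turned Dnmt3a from -0.0859 to 0.126. The difference of Tet1 between cultures then had an adjusted p of 0.227 (edgeR).

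**Figure D3:**
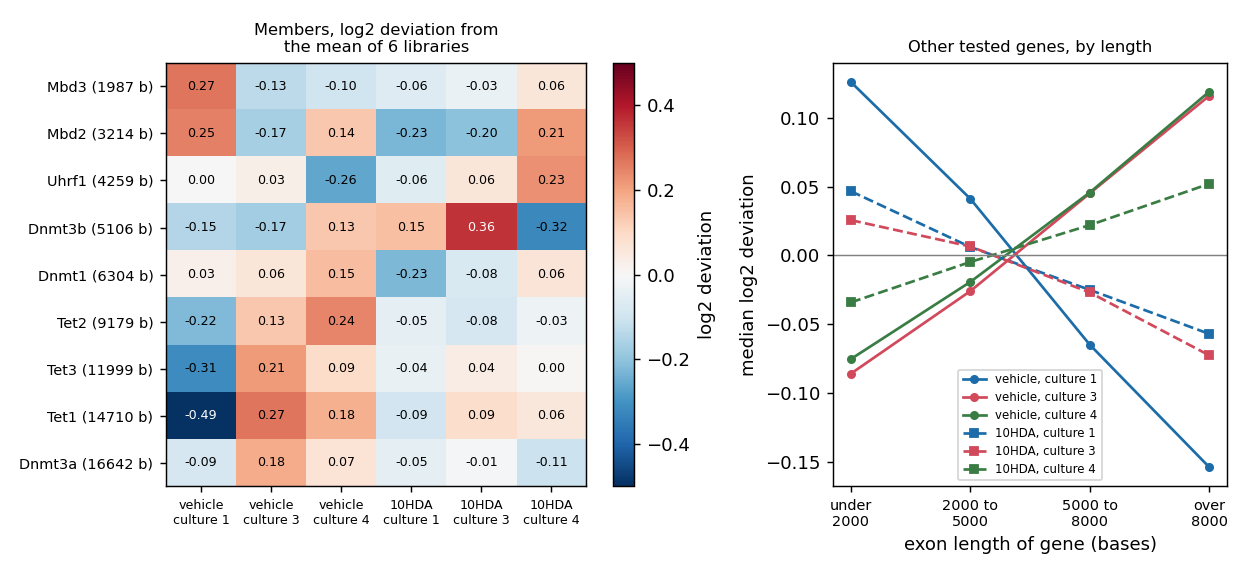
Left, log2 deviation of each member from its mean over 6 libraries, with members ordered by exon length in bases; right, median log2 deviation of the other tested genes in 4 classes of exon length, 1 line per library. In the vehicle library of culture 1 short genes were above and long genes below their means, and Tet1 had the lowest value of the left panel.

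Mbd2 reads methylated CpG and Mbd3, its paralog, is a core part of NuRD. Mbd3, on chromosome 10 (80392539 to 80399550, minus strand), stood at 119, 90.7 and 92.5 CPM with vehicle and at 94.8, 97.0 and 103 CPM with 10HDA. The vehicle library of culture 1 was the highest of the 6, where the TET genes had their lowest values. The log2 fold change was -0.036 (SE 0.119, adjusted p = 0.932, edgeR; 0.813-fold to 1.17-fold), and it was 0.124 without that library.

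Across the 6 libraries, Tet1 and Tet3 were the pair of members whose log2 levels were most alike (Pearson r = 0.987, Spearman rho = 1) and Tet3 and Mbd3 the most opposed pair by Pearson r (r = -0.926, rho = -0.829). By rho the most opposed were Dnmt3a and Mbd3 (rho = -0.886, r = -0.703), which were also more opposed without the vehicle library of culture 1 (r = -0.875, against -0.666 for Tet3 and Mbd3). The libraries come in pairs from 3 cultures and share the length pattern above, so these are descriptions of 6 points without a test. Without the 2 libraries farthest from the median of the first gene the values were 0.966 and -0.398, so the value of the opposed pair rested largely on those libraries. For these 3 genes, as the pairs most alike and most opposed by Pearson r, the 250 bases before the start listed by RefSeq on GRCm38.p6 are shown, written 5′ to 3′ on the strand of the gene with each CpG in capitals. Tet3 has 17 CpG in chr6:83441679-83441928, Tet1 has 15 in chr10:62887325-62887574 and Mbd3 has 14 in chr10:80399532-80399781, all on the minus strand. The Tet1 and Tet3 windows lie inside the genes as GENCODE draws them, before an internal start and not before the outermost one. The Mbd3 window lies at the outermost start of its gene.
Tet3: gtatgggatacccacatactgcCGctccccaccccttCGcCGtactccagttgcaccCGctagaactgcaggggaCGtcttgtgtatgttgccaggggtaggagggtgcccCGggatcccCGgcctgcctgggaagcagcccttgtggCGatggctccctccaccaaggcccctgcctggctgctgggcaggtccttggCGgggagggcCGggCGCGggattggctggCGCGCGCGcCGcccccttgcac
Tet1: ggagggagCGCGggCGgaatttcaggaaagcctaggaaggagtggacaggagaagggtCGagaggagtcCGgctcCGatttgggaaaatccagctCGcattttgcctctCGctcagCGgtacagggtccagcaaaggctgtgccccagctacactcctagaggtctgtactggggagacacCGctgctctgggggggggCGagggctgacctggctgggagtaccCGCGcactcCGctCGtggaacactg
Mbd3: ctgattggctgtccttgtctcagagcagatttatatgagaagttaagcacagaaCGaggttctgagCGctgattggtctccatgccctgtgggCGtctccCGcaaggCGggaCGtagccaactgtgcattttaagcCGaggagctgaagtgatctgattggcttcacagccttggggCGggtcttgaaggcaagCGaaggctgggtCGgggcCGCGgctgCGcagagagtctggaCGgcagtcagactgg

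The letters CG read the same on both strands, and 92.1% of the 32851 windows of this length in the RefSeq table hold at least 1 such pair, with a median of 6. Windows were listed for 8 of the 9 members, the entry for Mbd2 being missing. Of their 13 windows, 12 had at least the median number of CpG, from 7 to 51. The exception was 1 of the 3 starts of Dnmt1, with 2. Methylation of these windows was not measured, and their CpG number is a description only.

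Mbd2, on chromosome 18 (70568189 to 70626131, plus strand), had 25.3, 18.8 and 23.3 CPM with vehicle and 18.0, 18.3 and 24.6 CPM with 10HDA. Culture 1 alone was clearly lower with 10HDA, with a log2 ratio of -0.48 against -0.0386 and 0.0757 in cultures 3 and 4. The log2 fold change was -0.152 (SE 0.164, adjusted p = 0.756, edgeR; 0.701-fold to 1.16-fold), and without culture 1 it was 0.0384. The log2 ratio of Mbd2 to Mbd3 within a library was lower with 10HDA in each culture, by -0.158, -0.137 and -0.0815, but its ranges overlapped, from -2.27 to -1.99 with vehicle and from -2.41 to -2.07 with 10HDA.

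Neither of the other comparisons within a pair of related members had a shared direction. The log2 ratio of Dnmt3a to Dnmt1 changed by 0.29, -0.0593 and -0.082 in cultures 1, 3 and 4. That of Tet3 to Tet1 changed by -0.127, 0.00585 and 0.0357 and stayed between 1.96 and 2.23 in all 6 libraries.

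Per kb of exon, the members spanned a wide range of levels in the vehicle libraries. Mbd3 had 50.7 ± 8.08 CPM per kb (SD, n = 3), Dnmt1 26.7 ± 1.25, Tet3 16.3 ± 2.98 and Dnmt3a 15.9 ± 1.49. Tet2 followed with 8.50 ± 1.37 CPM per kb, Mbd2 with 6.98 ± 1.03, Uhrf1 with 5.64 ± 0.617, Tet1 with 3.25 ± 0.862 and Dnmt3b with 0.732 ± 0.101. Among neighbours in this order the ranges over 3 libraries overlapped for Tet3 and Dnmt3a, for Tet2 and Mbd2 and for Mbd2 and Uhrf1, and were separate for every other pair of neighbours. Among all tested genes, ranked by level per length over the 6 libraries, Mbd3 lay at percentile 88.3, Dnmt1 at 74.0 and Tet1 at 8.58. The lengths are those of the count table, which for Dnmt1 and the TET genes are shorter than in GENCODE M21 (for Tet2, 9179 against 16870 bases), so their levels depend on the gene model.

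**Figure D4:**
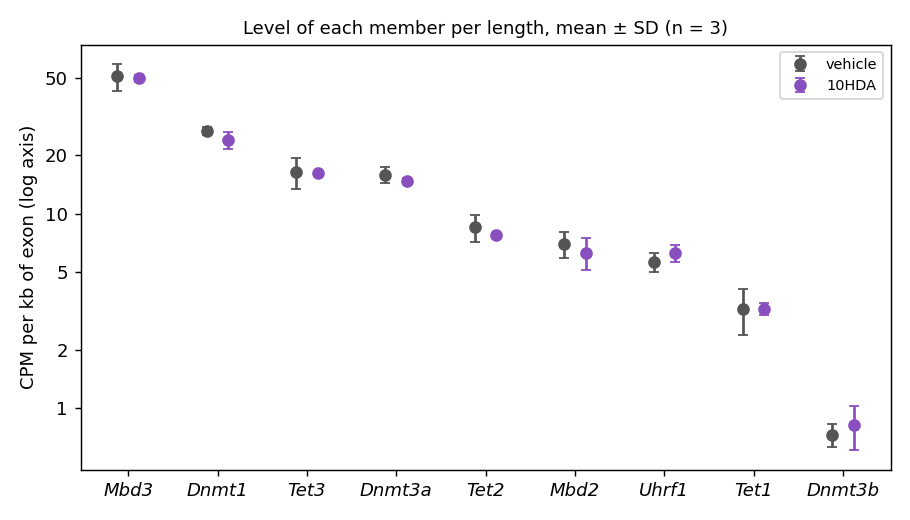
Mean ± SD over 3 libraries of CPM per kb of exon (log axis) for each member, ordered by the vehicle level, with vehicle in grey and 10HDA in purple. Mbd3 at 50.7 CPM per kb and Dnmt3b at 0.732 mark the ends of the vehicle order, and at each gene the treatments overlap.

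The size of the members' differences was like that of other genes. Their median absolute log2 fold change was 0.118 over the 8 tested members and 0.116 over all 10520 tested genes, and the median SE was 0.126 for both. The median signed value was -0.0754 for the members and -0.00953 for all tested genes, of which 5034 were higher and 5486 lower. The 95% intervals of the 8 tested members lay between 0.701-fold and 1.36-fold.

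Among the other genes of the pathway, 0 passed the threshold without a culture term in each of 9 lists, where an unadjusted p under 0.05 was found for 4 genes of the methyl donor cycle, 2 of repair, 2 imprinted genes and 0 of the other lists, beside the 10.1% of all tested genes under that cut. limma-voom also called 0, and DESeq2 called 1 gene of the methyl donor cycle and 0 in the other 8 lists. They called 66 and 170 of all 10520 tested genes. A total of 4 passed with culture as a block, 3 higher and 1 lower. For comparison, 3.91% of all tested genes passed as higher and 5.08% as lower in the blocked fit. The lists overlap in single genes, such as Mbd4, which is both a reader and a repair enzyme.

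The methyl donor cycle, which supplies the S-adenosylmethionine used by every DNA methyltransferase, had the highest median of these lists with all libraries. Of 15 listed genes 14 were tested, 11 were higher and 3 lower, and the median log2 fold change was 0.156 against -0.00953 for all genes. Without culture 1 it was 0.131, below the 0.205 of the S phase and mitosis list. With culture as a block 2 of them passed. Mthfd2, a mitochondrial one-carbon enzyme, was counted at 62.8, 64.1 and 55.0 CPM with vehicle and at 85.5, 81.0 and 77.0 CPM with 10HDA. All 10HDA libraries lay above all vehicle libraries, with a log2 fold change of 0.421 (SE 0.103, edgeR adjusted p = 0.169, and 0.0105 with culture as a block).

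Shmt2, which makes one-carbon units from serine in mitochondria, stood at 89.9, 64.5 and 83.3 CPM with vehicle and at 110, 88.0 and 103 CPM with 10HDA. Each culture was higher with 10HDA although the groups overlapped, and the log2 fold change was 0.34 (adjusted p = 0.443, and 0.0305 blocked, edgeR). With the length trend also removed, the blocked p-values were 0.00835 for Mthfd2 and 0.0164 for Shmt2 (edgeR, adjusted), and Mthfd1l, another mitochondrial folate enzyme, passed as well (log2 fold change 0.337, adjusted p = 0.0686). Without culture 1 neither passed in the fit without a culture term, and their log2 fold changes were 0.427 and 0.387.

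For the repair of oxidised or deaminated cytosine, 10 of 14 listed genes were tested, 4 higher and 6 lower, with a median of -0.0541. Neil1, a DNA glycosylase of base excision repair, was counted at 9.8, 7.73 and 8.5 CPM with vehicle and at 12.3, 12.0 and 10.8 CPM with 10HDA. It did not overlap between groups and passed only with culture as a block (log2 fold change 0.437, edgeR adjusted p = 0.36, and 0.0898 blocked). Tdg, which removes the final products of TET oxidation and was named after its value was seen, had a log2 fold change of 0.0643 (adjusted p = 0.844, edgeR).

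Imprinted genes, whose parental expression depends on DNA methylation set in the germline, were tested for 17 of 21 listed, 5 higher and 12 lower, with a median of -0.0647. Peg3, a paternally expressed zinc finger gene, had 190, 264 and 260 CPM with vehicle and 180, 181 and 196 CPM with 10HDA. It was lower with 10HDA in each culture, by log2 ratios of -0.0826, -0.546 and -0.402, and passed only with culture as a block (log2 fold change -0.36, edgeR adjusted p = 0.385, and 0.0365 blocked). Its lowest vehicle value, again in culture 1, lay below the highest 10HDA value.

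Germline genes that promoter methylation keeps silent in body cells stayed at low levels under both treatments. Of 18 listed, 3 were at 0 counts in all libraries, 5 reached 1 CPM in at least 3 libraries and 1, Brdt, was tested (log2 fold change -0.0405, adjusted p = 0.944, edgeR). Brdt had a mean of 13.5 CPM with vehicle and made up most of the summed level of the list, which was 23.0 to 23.7 CPM with vehicle and 22.6 to 24.2 CPM with 10HDA. A count of 0 in a library allows up to 3 counts, for counting error only. At these depths that is between 0.224 and 0.328 CPM, scaled by library totals alone.

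The remaining lists had 0 genes past the threshold with or without the block, though with the length trend also removed Chd3 of NuRD passed (blocked log2 fold change -0.212, edgeR adjusted p = 0.0841). The other readers (13 of 14 tested) had a median log2 fold change of -0.0503, and those with the smallest p were Zbtb4 (-0.288, adjusted p = 0.574) and Baz2b (-0.17, adjusted p = 0.66). NuRD subunits (13 of 13) had a median of -0.00424, with Chd5 at -0.25 (adjusted p = 0.5) and Chd3 at -0.249 (adjusted p = 0.512), both remodelling ATPases of that complex. Partners of the TET proteins and enzymes that set their cofactors (12 of 12) had a median of 0.0182, with Cxxc4 at -0.285 (adjusted p = 0.529) and Idh2 at -0.19 (adjusted p = 0.572). Apart from the blocked value of Chd3, these p-values are from edgeR without a culture term.

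Factors that guide or stabilise DNA methyltransferases (13 of 16 tested) had a median log2 fold change of -0.0641. Those with the smallest p were Setd2, which writes a histone mark that DNMT3 proteins read (-0.191, adjusted p = 0.633, edgeR), and Usp7, which stabilises DNMT1 and UHRF1 (-0.124, adjusted p = 0.655, edgeR). Genes of S phase, in which DNMT1 and UHRF1 act on new DNA, and of mitosis had 14 of 18 tested, 12 higher and 2 lower, with a median of 0.103 (0.205 without culture 1). Rrm2 and Mcm4, which serve DNA synthesis, were at 0.255 (adjusted p = 0.53) and 0.24 (adjusted p = 0.532, edgeR).

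**Figure D5:**
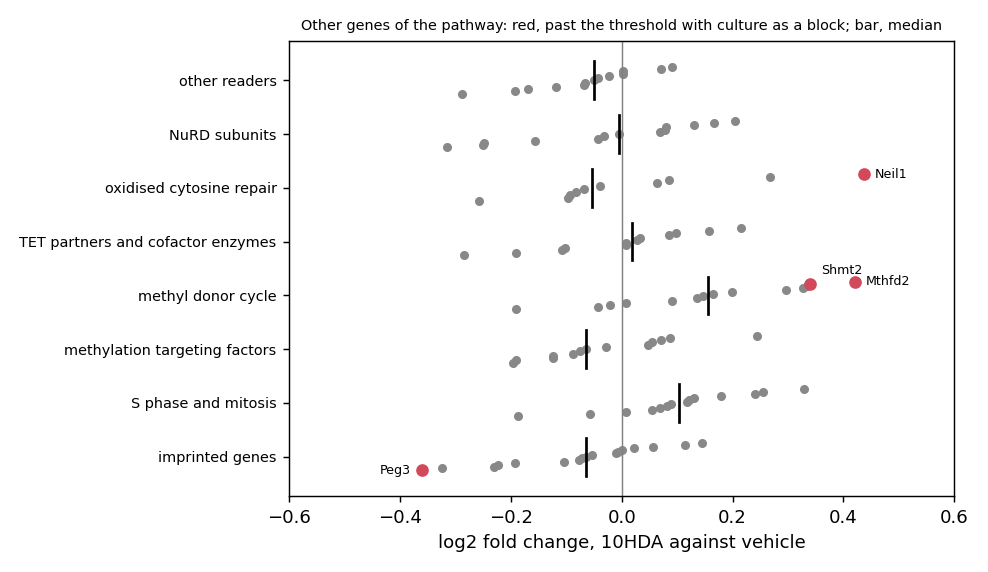
Log2 fold change, 10HDA against vehicle (horizontal axis), of every tested gene in 8 lists of the methylation pathway, with 1 point per gene, a black bar at each median and red for genes past the threshold with culture as a block. The methyl donor cycle has its median at 0.156 and holds 2 of the 4 red points.

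Some markers of astrocytes, of the oligodendrocyte lineage and of endothelial cells and pericytes passed without the block, where the members did not. Without the block 10.1% of all tested genes had an unadjusted p under 0.05 (edgeR). With the block 5.08% of all tested genes passed as lower and 3.91% as higher. Of 10 neuronal markers 0 passed without the block, 4 had an unadjusted p under 0.05 and 4 were lower with the block, and their summed level was 8580 to 9040 CPM with vehicle and 7090 to 8070 CPM with 10HDA. Of 8 tested astrocyte markers (9 listed), 3 fell (Aldoc, Aldh1l1 and Gfap, with log2 fold changes of -0.809, -1.02 and -1.28), against 0.428% of all tested genes, and the summed level was 1190 to 1470 CPM against 919 to 1140 CPM. Oligodendrocyte lineage markers (6 of 7 tested) went both ways, with 1 that fell, Cspg4, while Olig2 was at 0.235 (adjusted p = 0.463, edgeR) and Olig1 at 0.059 (adjusted p = 0.879). With the block 3 of them were lower, Cspg4, Pdgfra and Sox10, the latter 2 with log2 fold changes of -1.26 and -1.53. The single tested marker of endothelial cells and pericytes, Pdgfrb of 8 listed, fell like Cspg4 (-1.07 and -0.922). The summed levels of the oligodendrocyte and the vascular list were 336 to 418 against 253 to 362 CPM, and 17.5 to 19.4 against 8.16 to 10.9 CPM. Pdgfrb alone, with means of 15.7 and 7.38 CPM, made up most of the vascular sums. In the oligodendrocyte list Pdgfra had means of 109 and 47.3 CPM, while those of Olig1 and Olig2 were higher with 10HDA.

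Of the progenitor markers, 0 passed without the block in edgeR or limma-voom, while DESeq2 called 2 intermediate progenitor markers and 2 neuronal ones. DESeq2 called 170 of all 10520 tested genes. With the block, Insm1 and Btg2, the 2 tested of 6 intermediate progenitor markers, were higher, with sums of 49.4 to 68.5 CPM against 72.7 to 109 CPM. Among 6 tested radial glia markers (8 listed) Vim was higher and Fabp7 lower with the block, and the sums were 789 to 959 and 729 to 816 CPM. The 7 microglia markers summed to at most 1.19 CPM, and 1 of them, Tmem119, was at 0 in every library. Without culture 1, 0 markers in any list passed, in a fit that called 2 genes in all and gave 665 an unadjusted p under 0.05 (edgeR). Pdgfrb and Sox10 did not reach the filter of that fit and were not tested in it. The log2 fold changes then stayed near their values with all libraries, at -1.05 for Gfap, -0.952 for Aldh1l1, -0.683 for Aldoc and -0.882 for Cspg4. In these bulk libraries, fewer cells of a type and less RNA per cell cannot be told apart, and the part of cell makeup in the levels of the 9 members was not tested.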

How the data were processed

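RNA from 3 vehicle and 3 10HDA libraries was analysed. Per the paper's methods and processing notes, the authors checked reads with FastQC, aligned them untrimmed to mm10 (GRCm38) with Subjunc of Subread 1.4.4 and summarized them with featureCounts over GENCODE gene models. The table they deposited holds raw counts, which the authors had neither normalized nor filtered. Each count column was matched to its sample through its title, and 0 further sample columns were found. Symbols came from a GENCODE M21 table, which matched 97.96% of identifiers, and 26859 genes had at least 1 count.

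Counts were scaled by TMM and tested with edgeR 4.0.16 (glmQLFit, glmQLFTest) in R 4.3.3 on genes reaching 10 CPM in 3 or more libraries, without a culture term, with Benjamini-Hochberg adjustment over all tested genes at 0.1. The study's methods give edgeR, TMM, this filter and this threshold, and name neither a culture term nor the form of the test. Printed levels are CPM after TMM scaling, except the Y-linked sums and the limit for a count of 0, which used library totals alone. Log2 ratios between the libraries of a culture, and log2 deviations or differences between libraries, add 0.5 CPM to each value. Ratios of members within a library add nothing, and intervals are 95%. The common biological coefficient of variation came to 0.116, or 0.0849 in the blocked fit.

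The labels place 1 library of each treatment in each culture, so the culture number pairs libraries. Deviations from the treatment means correlated across genes at 0.366, 0.234 and 0.617 within cultures 1, 3 and 4, and at -0.451 to 0.186 between cultures. The members and lists were chosen with earlier results of these data known, and 1 item of a list is not reported here. Named are all members, up to 5 genes per list past the threshold with or without the block or otherwise the 2 with the smallest p, and the most alike and most opposed pair of members. Alternatives were other scalings, DESeq2 1.42.0, limma-voom (limma 3.58.1), other filters, a threshold of 0.05, the culture block and each library or culture left out. Removal of a length trend (lowess, span 0.3), the culture test and the 2 ratios in the closing section were added after the data were seen. Scripts were tested on simulated data.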

Additional observations from a re-analysis of the deposited data

How the results depend on the processing

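No member passed the threshold under any alternative. The smallest adjusted p was 0.293, for Dnmt1 with the length trend removed and culture as a replicate block, and an unadjusted p under 0.05 was reached by 1 member, only without the vehicle library of culture 1. Of 179 combinations of a member and an alternative, 142 kept the direction and 37 reversed it. Dnmt1, Dnmt3a and Tet2 kept theirs in all 20. Tet1 turned positive in 16 of 20, at 0.00745 with DESeq2's size factors, 0.0262 with upper quartile scaling, 0.0746 with library size alone, 0.00827 with DESeq2, 0.0271 with limma-voom, 0.00834 with the 1 CPM filter, 0.00811 with filterByExpr, 0.00499 with no filter, 0.0234 with the culture block, and 0.107 and 0.114 with the length trend removed, without and with the block. Tet3 turned positive in 15, at 0.000247, 0.0183, 0.0659, 0.000319, 0.00504, 0.00113 and 0.000886 under the first 7 of these, 0.00344 with the block, and 0.0695 and 0.0707 with the length trend removed. Mbd3 was at 0.0369 with library size alone. Leaving out each library or culture in turn gave -0.184 to 0.158 for Tet1, -0.129 to 0.119 for Tet3, -0.124 to 0.147 for Mbd3, -0.304 to 0.0384 for Mbd2, -0.00958 to 0.274 for Uhrf1 and -0.069 to 0.474 for Dnmt3b. The causes were not tested.

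Of all genes, 66 passed in the reported fit, 43 at a threshold of 0.05, 170 with DESeq2, 636 with no filter, 945 with culture as a replicate block and 1317 with the block and the length trend removed. Of the 9 pathway lists the block changed the count for 3, to 1 for repair, 2 for the methyl donor cycle and 1 for imprinted genes, and it changed no member call. Of the marker lists it changed neurons from 0 to 4, astrocytes from 3 to 4, radial glia from 0 to 2, intermediate progenitors from 0 to 2 and the oligodendrocyte lineage from 1 to 3. With the length trend also removed, Polb, Mthfd1l, Nnat and Chd3 of the pathway lists and Tubb3 and Gja1 of the marker lists were called in addition. Leaving out libraries gave 0 to 355 genes: 101, 2 and 10 without the vehicle library of culture 1, 3 or 4, 0, 27 and 355 without the 10HDA library, and 2, 0 and 35 without both. Where edgeR called 0, 453 (10HDA library of culture 1 left out) and 689 (culture 3 left out) genes had an unadjusted p under 0.05. Where 1 culture was left out, 2 libraries per treatment remained. Library size alone shifted the median of all genes most, to 0.0665. Depth limits Dnmt3b most, at 27 to 70 counts per library.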

Other observations

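After the values were seen, 2 further ratios within a library were computed as descriptions, without a test. The log2 ratio of Uhrf1 to Dnmt1, partners in copying methylation after replication, was -2.68, -2.68 and -3.08 in the vehicle libraries of cultures 1, 3 and 4 and -2.49, -2.52 and -2.49 in the 10HDA libraries. All 3 values with 10HDA lay above all 3 with vehicle, and the difference within cultures was 0.186, 0.169 and 0.588. The pair was picked from these values, and neither gene passed the test by itself.

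The log2 ratio of Tet1 to Mbd3, a long and a short gene, was -1.84 in the vehicle library of culture 1 and between -1.10 and -0.675 in the other 5 libraries. Over genes outside the lists, the Spearman correlation of the deviation of a gene with its exon length was -0.515 in that library, 0.459 and 0.292 in the vehicle libraries of cultures 3 and 4, and -0.219, -0.165 and 0.183 in the 10HDA libraries of cultures 1, 3 and 4 (10374 genes, which are not independent replicates).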
